A study of Rattus norvegicus with 8 samples.

Results

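The 10 genes described here belong to the antioxidant response that the transcription factor Nrf2 controls: Nfe2l2, which encodes Nrf2, Keap1, which encodes the protein that holds it in check, and 8 of its textbook targets, Nqo1, Hmox1, Gclc, Gclm, Txnrd1, Srxn1, Slc7a11 and Gsr. They were found on the Arraystar rat lncRNA array as the probes, other than control probes, whose RefSeq transcript belongs to one of these genes. Each gene had 1 probe, printed in 1 spot, so the 10 probes were 10 of the 24684 on the array, and the 10 genes were 10 of the 13903 that could be named. The transcripts printed for them were NM_031789.1 (Nfe2l2), NM_057152.1 (Keap1), NM_017000.3 (Nqo1), NM_012580.2 (Hmox1), NM_012815.2 (Gclc), NM_017305.2 (Gclm), NM_031614.2 (Txnrd1), NM_001047858.2 (Srxn1), NM_001107673.2 (Slc7a11) and NM_053906.1 (Gsr).

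RNA came from male F344 rats in the 95th week of a lung cancer model induced by NNK, a nitrosamine of tobacco smoke. Lung was sampled from NNK-treated rats as 3 tumors and 3 normal tissues matched to them, and blood as 1 clot from a control rat and 1 from a NNK-treated rat. Normal lung had therefore been exposed to NNK as the tumors had, and lung of untreated rats was not analysed here. The methods describe the tumors as moderately differentiated adenocarcinoma, and the tissue was bulk, so each value is a sum over all cells of a sample. For NNK blood the labels disagree, as its description is the same as for a tumor but its title and tissue say clot, and it was taken as blood.

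In resting cells Keap1 binds Nrf2 and brings it to a ubiquitin ligase that marks it for degradation. Electrophiles and oxidants modify Keap1, Nrf2 then reaches the nucleus, pairs with a small Maf protein and binds the antioxidant response element of genes for glutathione synthesis, NADPH supply, thioredoxin recycling and heme breakdown. In human lung adenocarcinoma the pathway is known for frequent changes that leave Nrf2 active. Most of this control acts on the Nrf2 protein, which an RNA array does not measure.

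Since the targets are read through this element, the bases before their starts are shown first. RefSeq promoters of the assembly GRCr8 were given for 8 of the 10 genes, with 2 starts for Txnrd1. Hmox1 and Gsr had no entry. The 250 bases before each of the 9 starts were searched on both strands for the core of the element, TGANNNNGC, for its narrower form TGACNNNGC, whose matches are all among those of the first, and for the AP-1 site TGANTCA. The wider core was found in 6 of the 9 windows and in 34.7% of all 33465 promoter windows of the same length. The 6 were those of Gclm, Keap1, Nqo1, Slc7a11, Srxn1 and 1 start of Txnrd1. Those of the target Gclc, of Nfe2l2 and of the other start of Txnrd1 held no match. The narrower form was found in 2 of the 9, those of Gclm and of 1 start of Txnrd1, and in 10.1% of all windows. An AP-1 site was found in the window of Srxn1 alone, 62 bases before the start and apart from the cores there, and in 6.34% of all windows. 4 of the windows follow, 5′ to 3′, as the gene reads, with each TGANNNNGC match in capitals. Those of Gclm and Txnrd1 hold the narrower form, read on the opposite strand as TGACTAAGC and TGACAAAGC, at 172 and 78 bases before the start. Those of Nqo1, the classical target, and Srxn1 hold the wider core only, at 50 bases in Nqo1 and at 118 and 17 bases in Srxn1. A match describes letters and does not show that Nrf2 binds.
Gclm, chr2:213031885-213032134, plus strand: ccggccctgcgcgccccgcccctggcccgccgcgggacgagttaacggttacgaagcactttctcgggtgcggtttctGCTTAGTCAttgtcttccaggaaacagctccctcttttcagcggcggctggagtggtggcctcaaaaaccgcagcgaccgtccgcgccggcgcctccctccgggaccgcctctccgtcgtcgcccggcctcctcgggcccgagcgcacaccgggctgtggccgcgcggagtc
Txnrd1, chr7:22755905-22756154, minus strand: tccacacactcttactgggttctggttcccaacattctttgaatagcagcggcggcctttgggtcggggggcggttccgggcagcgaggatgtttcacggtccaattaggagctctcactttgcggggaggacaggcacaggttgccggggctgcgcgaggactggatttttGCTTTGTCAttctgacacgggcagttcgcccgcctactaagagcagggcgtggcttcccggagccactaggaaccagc
Nqo1, chr19:52220268-52220517, minus strand: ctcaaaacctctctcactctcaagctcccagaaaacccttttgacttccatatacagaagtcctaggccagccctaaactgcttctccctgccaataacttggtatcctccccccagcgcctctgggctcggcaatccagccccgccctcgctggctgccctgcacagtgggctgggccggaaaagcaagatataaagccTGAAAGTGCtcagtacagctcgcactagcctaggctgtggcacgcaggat
Srxn1, chr3:161064562-161064811, plus strand: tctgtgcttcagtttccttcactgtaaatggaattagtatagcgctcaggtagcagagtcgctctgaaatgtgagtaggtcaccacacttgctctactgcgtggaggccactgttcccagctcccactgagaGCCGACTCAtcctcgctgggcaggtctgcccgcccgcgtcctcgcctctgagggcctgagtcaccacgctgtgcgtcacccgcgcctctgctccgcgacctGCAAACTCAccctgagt

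The array is read in 1 colour, and a value here is the log2 of the background-subtracted signal of a probe, quantile-normalized within the 6 lung arrays unless stated. A difference of 1 is therefore a 2-fold change. The median signal per array was between 25.0 and 35.6 in lung and was 11.8 and 32.0 in blood, and no spot was saturated. Some features of the lung arrays bear on every result below. The 3 normal arrays differed from each other by 0.819 to 1.38 times the mean squared difference expected from repeat spots of 1 array, and tumor arrays 2 and 3 by 0.585 times, which is close to or within the noise of repeat spots, whereas tumor array 1 differed from them by 6.32 to 6.52 times and normal from tumor arrays by 24.0 to 34.0 times. The normal arrays, and tumor arrays 2 and 3, may therefore each be 1 sample, and the lung differences of the genes named are also given with such arrays counted once. The normal arrays and tumor array 1 were read in 1 scan and tumor arrays 2 and 3 in another. Counted once, the fit holds 1 normal value, tumor array 1 and the mean of tumor arrays 2 and 3. Its p-values rest on the spread between these 2 tumor values, pooled with that of other probes, and the 2 also differ in scan. Passing the threshold in that fit therefore says nothing about the spread between normal samples and is no check over animals. The labels name no separate animal for an array, so p-values measure only the spread between these arrays, which may be technical.

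Feature Extraction marked more spots as outliers on the tumor arrays, 15.9% to 25.3% of the spots above background, than on the normal arrays, 4.92% to 8.62%. Marked spots were left out, and 3332 of the 15803 probes that passed the filter on dim signal could then not be tested. Of the 10 genes 9 passed that filter. Gsr passed it through the 3 tumor arrays alone, so its place among the genes that rose below is partly set by the filter. Nfe2l2 was marked on all 6 lung arrays, Gclc on 1 normal and all 3 tumor arrays and Nqo1 on tumor arrays 2 and 3, so that 6 genes were tested and the values of these 3 come from the fit of limma with marked spots kept.

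In lung tumor, Nfe2l2, Nqo1, Hmox1, Gsr and, narrowly, Txnrd1 were higher than in matched normal lung, Gclc and Slc7a11 were lower, and Gclm and Srxn1 did not pass the test. With marked spots left out, 3 of the 6 tested genes rose and 1 fell at an adjusted p of 0.05, where 33.7% of the 12471 probes tested rose and 31.4% fell. With marked spots kept, 5 of the 9 rose and 2 fell, where 34.5% of 15803 probes rose and 31.6% fell. On all 3 tumor arrays, 5 of the 9 lay above all 3 normal arrays and 2 below, where 38.3% and 34.7% of all probes did, or 73.0% in either direction. The median difference of the 9 genes was 0.15, beside 0.06 over all 15803 probes. At least 2-fold, 3 of the 9 rose and none fell, where 13.5% of all probes rose and 14.4% fell by as much. The 3 were Nfe2l2, Hmox1 and Gsr. Gsr passed the filter through its tumor arrays alone, so it could enter these counts only as a rise. With the replicate number as a block and marked spots kept, 4 of the 9 rose and 0 fell, the calls of Txnrd1, Gclc and Slc7a11 being lost. The share of all probes in that fit is not given, so these counts are not set against a background. With marked spots left out, 2 of the 6 rose and 0 fell under this block, where 3719 of the 12471 probes rose and 3644 fell. With near-identical arrays counted once, none of the 9 passed the adjusted threshold of limma, and 6.90% of all probes rose and 8.52% fell with marked spots kept. In that fit 2 of the 9, Hmox1 and Gsr, had an unadjusted p under 0.05, Gsr being in the fit only through its tumor arrays.

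**Figure D1:**
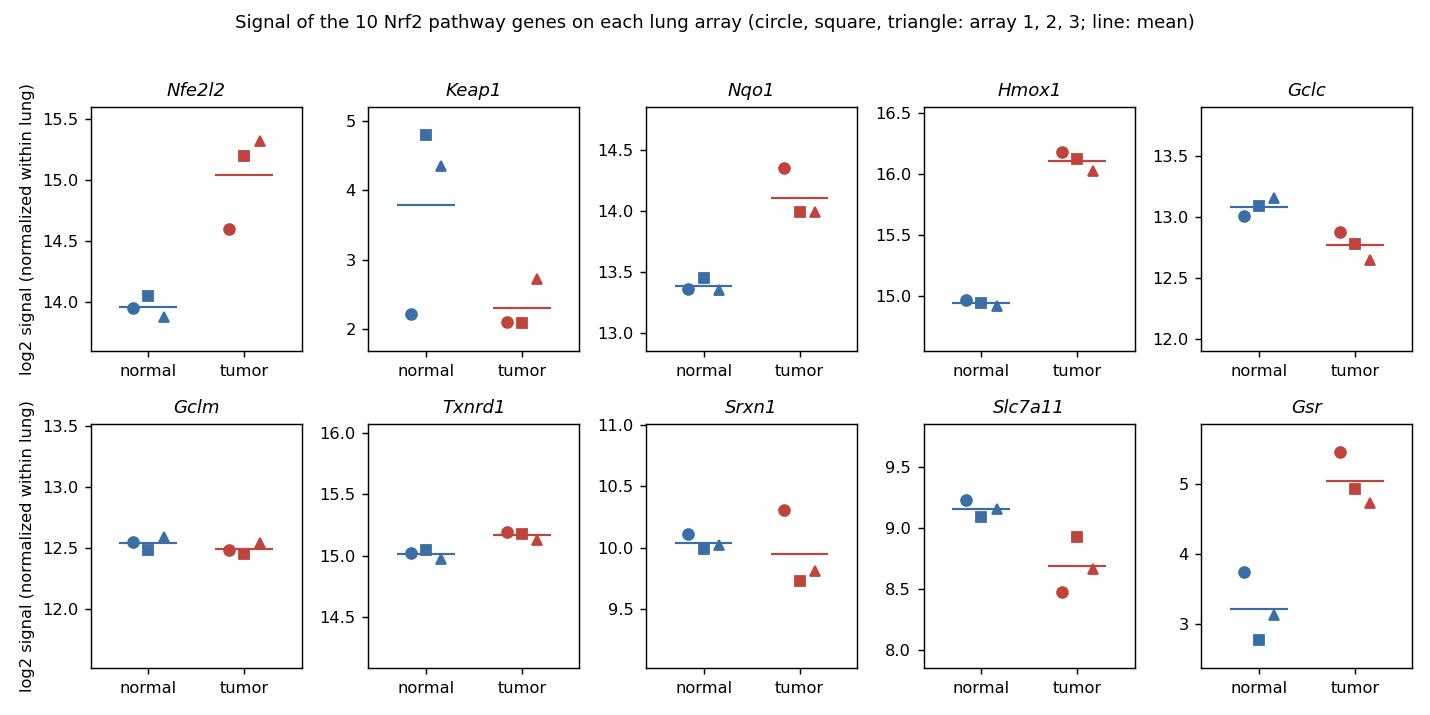
Log2 signal of each gene (vertical axis, normalized within the lung arrays) on the 3 normal lung and 3 lung tumor arrays, with circle, square and triangle for arrays 1, 2 and 3 and a line at the mean. Panels have their own vertical range, at least 2 log2 units high. All tumor points of Nfe2l2, Nqo1, Hmox1, Txnrd1 and Gsr lie above all normal points, those of Gclc and Slc7a11 lie below, and those of Keap1, Gclm and Srxn1 overlap them.

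Nfe2l2, the gene of Nrf2 itself, had a log2 signal of 13.95, 14.05 and 13.88 on normal lung arrays 1 to 3 and of 14.60, 15.19 and 15.32 on tumor arrays 1 to 3. The groups did not overlap, and tumor array 1 was the lowest of the tumors. The difference was 1.08 (SE 0.20), a 2.11-fold rise with a 95% interval from 1.49 to 2.99, at an adjusted p of 0.00512 by limma with marked spots kept. Within the scan that held the normal arrays and tumor array 1 it was 0.64. With near-identical arrays counted once it was 0.97, at an adjusted p of 0.178 by limma. All 6 of these spots carried an outlier mark, and what the marks did to the value was not tested.

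Keap1, the cytosolic inhibitor, was at the edge of detection. Its log2 signal was 2.23, 4.80 and 4.35 on the normal arrays and 2.11, 2.09 and 2.72 on the tumor arrays, and it was well above background on 2 normal arrays, numbers 2 and 3, and on no tumor array. It did not pass the filter and was not tested. Set against the dimmest detectable signal of the tumor arrays, the normal mean was 1.55-fold higher. That mean includes normal array 1, which was not above background, so it sets no lower limit. The groups overlapped, since normal array 1 was as dim as the tumors.

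Hmox1 encodes heme oxygenase-1, which opens the heme ring and releases iron, carbon monoxide and biliverdin. Its log2 signal was 14.96, 14.94 and 14.92 on the normal arrays and 16.17, 16.12 and 16.02 on the tumor arrays. The arrays of a group were close together and the groups far apart. The difference of 1.17 (SE 0.060) was a 2.25-fold rise, with a 95% interval from 2.02 to 2.49 and an adjusted p of 4e-05 by limma, the lowest of the 9 genes fitted. Within 1 scan it was 1.23. Counted once, near-identical arrays gave 1.18 and an adjusted p of 0.0572 by limma. Macrophages, which break down red cells, are known for high heme oxygenase-1. Of the 6 macrophage markers on the array 4 were above background in lung, of which Mrc1 rose, Csf1r and Adgre1 fell and Cd68 did not pass the test, and their summed signal ranged from 97918 to 106031 in normal lung and from 107051 to 127359 in tumor. Marco and Cd163 were not above background. The 5 red blood cell markers all fell, from a sum of 187768 to 198921 down to one of 98181 to 107264. The part of these cells in the Hmox1 difference was not tested, and in bulk tissue fewer cells of a type and less RNA per cell cannot be told apart.

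Nqo1 encodes the quinone reductase that is the standard readout of Nrf2 activity. Its log2 signal was 13.36, 13.45 and 13.35 in normal lung and 14.35, 13.99 and 13.99 in tumor. All tumors stood above all normals, with tumor array 1 highest, opposite to its place for Nfe2l2. The difference was 0.72 (SE 0.12), a 1.65-fold rise with an interval from 1.35 to 2.02, at an adjusted p of 0.00289 by limma with marked spots kept. Within 1 scan it was 0.96, and with near-identical arrays counted once it was 0.78, at an adjusted p of 0.147 by limma. Only tumor array 1 carried no outlier mark among the tumors.

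The glutathione genes went different ways. Gsr, glutathione reductase, which returns oxidized glutathione to its reduced form with NADPH, was dim, at 3.75, 2.77 and 3.13 in normal lung, not well above background on any normal array, and at 5.47, 4.93 and 4.74 in tumor, above background on all 3. The fitted difference was 1.83 (SE 0.31), at an adjusted p of 0.00406 by limma. As normal lung gave only an upper limit, the tumor mean was set against the dimmest detectable signal of the normal arrays. The tumor mean was 2.29-fold higher than that signal. The interval of the fitted rise ran from 2.05-fold to 6.13-fold, so 2.29-fold is no firm lower limit. Counted once, near-identical arrays gave an adjusted p of 0.0693, and the normexp background correction, which raises dim signals, gave a difference of 0.47.

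Gclc and Gclm encode the catalytic and the modifier subunit of glutamate-cysteine ligase, the rate-limiting enzyme of glutathione synthesis. Gclc was at 13.01, 13.09 and 13.15 in normal lung and at 12.87, 12.78 and 12.64 in tumor. The groups were separate by a narrow margin, and the difference was -0.32 (SE 0.081), a 1.25-fold fall, at an adjusted p of 0.0172 by limma with marked spots kept. The call was lost with the replicate number as a block (adjusted p of 0.0626), with the normexp correction (0.0514), without normal array 2 or 3 (0.0555 and 0.0604), with the scan as a block (-0.21, adjusted p of 0.107) and with near-identical arrays counted once (adjusted p of 0.394). Gclm was at 12.54, 12.48 and 12.59 in normal lung and at 12.48, 12.45 and 12.54 in tumor. The groups overlapped, and the difference of -0.05 had a 95% interval from -0.19 to 0.09 and an adjusted p of 0.469 by limma, so that a change of 2-fold lay outside the interval. Gclm passed the test under a 75th percentile shift (-0.21, adjusted p of 0.0339) and turned in sign with the normexp background correction (0.09).

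Slc7a11 encodes the transporter xCT, which brings in cystine in exchange for glutamate and so feeds glutathione synthesis. It was at 9.23, 9.09 and 9.15 in normal lung and at 8.48, 8.93 and 8.67 in tumor. Every tumor lay below every normal array, and tumor array 2 came nearest to them. The difference was -0.47 (SE 0.13), a 1.38-fold fall, at an adjusted p of 0.0213 by limma. Within 1 scan it was -0.68. The call was lost with the replicate block (adjusted p of 0.0613), under a 75th percentile shift (-0.33, adjusted p of 0.0726), without normal array 1 or 3 or tumor array 3 (adjusted p of 0.0667, 0.0586 and 0.0601), and with near-identical arrays counted once (adjusted p of 0.244). Slc3a2, the heavy chain that pairs with xCT, fell by 0.29 (adjusted p of 0.00901, or 0.385 with near-identical arrays counted once).

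Txnrd1 and Srxn1 serve the thioredoxin system, Txnrd1 as the cytosolic thioredoxin reductase and Srxn1 as sulfiredoxin, which repairs overoxidized peroxiredoxins. Txnrd1 was at 15.02, 15.05 and 14.97 in normal lung and at 15.19, 15.18 and 15.13 in tumor. The groups were separate and the rise was small, 0.15 (SE 0.052) or 1.11-fold, at an adjusted p of 0.0453 by limma. The call was lost with the replicate block (adjusted p of 0.107), with the scan as a block (0.0574), without any 1 of the arrays other than tumor array 1 (0.0645 to 0.144), with near-identical arrays counted once (0.586) and under a 75th percentile shift, where the difference was 0.02. Srxn1 was at 10.11, 9.99 and 10.02 in normal lung and at 10.30, 9.72 and 9.81 in tumor. Tumor array 1 lay above the normal arrays and tumor arrays 2 and 3 below them. The difference was -0.09, with a 95% interval from -0.51 to 0.32 and an adjusted p of 0.637 by limma. The difference was 0.26 (adjusted p of 0.0413) with the scan as a block, -0.27 (adjusted p of 0.0150) without tumor array 1 and -0.005 (adjusted p of 0.993) with near-identical arrays counted once. As tumor array 1 is the only tumor read with the normal arrays, scan and sample cannot be told apart.

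**Figure D2:**
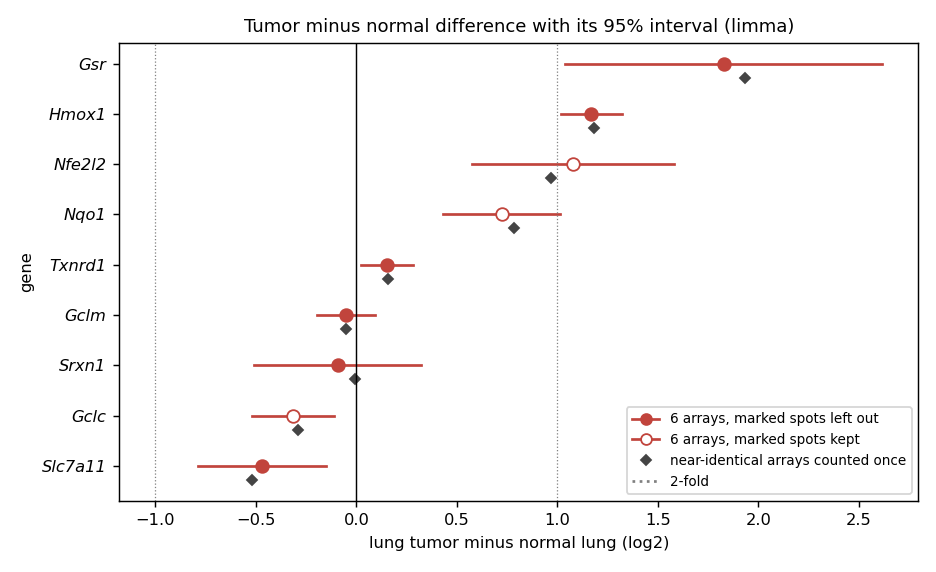
Tumor minus normal lung difference (horizontal axis, log2) of the 9 genes that passed the filter, with bars for the 95% interval of limma over 6 arrays. Open circles are genes fitted with marked spots kept, diamonds are the differences with near-identical arrays counted once, and dotted lines mark 2-fold. Gsr, Hmox1, Nfe2l2 and Nqo1 lie well to the right of 0, from 1.83 down to 0.72. The diamonds lie close to the circles, which is no separate check, as they come from the same arrays. The Gsr point is a fitted value. Against the dimmest detectable signal of the normal arrays its tumor mean was 2.29-fold higher.

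The genes around these 10 were followed through 7 lists of 82 genes in all, 6 of them lists of the pathway and 1 of superoxide and peroxide enzymes outside it, of which 74 genes were on the array. With marked spots left out, 17 of the 52 genes tested rose and 18 fell, and with marked spots kept 29 of 72 rose and 23 fell, against the background shares of 33.7% and 31.4%, or 34.5% and 31.6%, of all probes. With near-identical arrays counted once the fit had 1 normal value, so no total over the 7 lists is given for it. Below, genes of each list with the largest differences among those called are named, from the fit with marked spots left out. Named beside them, and chosen after their values were seen, are Dpp3, Sqstm1, Mafg, Gss, Slc3a2, Glrx, Prdx1, Prdx3, Fth1, Slc40a1 and Sod1. Unless stated, the replicate block changed no count of a list, with marked spots left out or kept.

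Among the partners and regulators of Nrf2, 2 of 10 tested genes rose and 4 fell. The largest changes among those called were falls, by 1.53 in Bach2 (adjusted p of 0.000298), a repressor that competes for the element, and, 2.14-fold, in Mafk (adjusted p of 0.00106), which encodes a small Maf partner. The median difference of the list was -0.22. Dpp3 and Sqstm1, whose proteins bind Keap1, were the 2 that rose, by 1.01 and 0.18. The calls of Sqstm1 and Mafg, a small Maf that was 1 of the 4 to fall, were lost with the replicate block, that of Sqstm1 also with marked spots kept. With near-identical arrays counted once none of the list passed, at an adjusted p of 0.0676 for Bach2, 0.0803 for Mafk, 0.0683 for Dpp3 and 0.563 for Sqstm1.

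Of the glutathione list 2 of 9 tested genes rose and 5 fell, with a median of -0.29, and with marked spots kept 3 of 11 rose and 5 fell, with a median of -0.008. Gpx3, the secreted glutathione peroxidase, fell by 1.96 (adjusted p of 3.78e-05), from a range of 11.58 to 11.59 in normal lung to one of 9.52 to 9.83 in tumor, and was still past the threshold with near-identical arrays counted once (0.0424). Gpx7, a peroxidase of the endoplasmic reticulum, fell by 1.28 (adjusted p of 0.000101), and counted once was at 0.0503, or 0.0463 with marked spots kept. Gss, which adds glycine in the last step of synthesis, was 1 of the 2 that rose, by 0.39 (0.281 counted once). Glrx, glutaredoxin, rose by 1.29 with marked spots kept (adjusted p of 4.18e-05, and 0.0452 counted once).

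Of the thioredoxin and peroxiredoxin list 3 of 6 tested genes rose and 1 fell, and with marked spots kept 6 of 11 rose and 2 fell. Prdx5, a peroxiredoxin of mitochondria and peroxisomes, rose by 1.11 (adjusted p of 4.23e-05), and Txnip, which binds and inhibits thioredoxin, fell by 0.94 (adjusted p of 5.17e-05). The peroxiredoxins Prdx1 and Prdx3 also rose, by 0.64 and 0.65. With near-identical arrays counted once none of the list passed, at an adjusted p of 0.0606 for Prdx5, 0.0780 for Txnip, 0.176 for Prdx1 and 0.127 for Prdx3.

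The NADPH list was the most affected by the marks. With marked spots left out 3 of its 7 genes were tested. Pgls, the lactonase of the pentose phosphate pathway, rose by 0.89 (adjusted p of 0.000273, and 0.0897 with near-identical arrays counted once). With marked spots kept 6 of the 7 rose and none fell, against 34.5% of all probes that rose. Idh1, the cytosolic isocitrate dehydrogenase, and Me1, the malic enzyme, were singled out after their values were seen. With marked spots kept, Idh1 ran from 8.35 to 8.44 in normal lung and from 11.10 to 11.28 in tumor, a rise of 2.81, and Me1 from 8.19 to 8.38 and from 10.80 to 11.08, a rise of 2.64. Both were past the threshold with near-identical arrays counted once, each at an adjusted p of 0.0283.

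Downstream of heme oxygenase, the biliverdin reductases Blvrb and Blvra rose by 1.36 (adjusted p of 9.26e-05) and 0.88 (adjusted p of 4.56e-05). In the same list the ferritin heavy chain Fth1 fell by 0.33 and the iron exporter Slc40a1 by 0.36, and 2 of 6 tested genes rose and 2 fell in all, or 3 and 4 of 9 with marked spots kept. With near-identical arrays counted once none of the list passed, at an adjusted p of 0.0616 for Blvrb with marked spots kept, 0.0820 for Blvra, 0.341 for Fth1 and 0.302 for Slc40a1.

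Of the superoxide and peroxide genes outside the pathway, 2 of 4 rose and 1 fell, and the call of Sod1, 1 of the 2 that rose, was lost with the replicate block and marked spots left out. Sod3, the extracellular dismutase, fell by 1.85 (adjusted p of 1.07e-05) and the mitochondrial Sod2 rose by 0.45 (adjusted p of 0.0053), and counted once they were at 0.0371 and 0.229.

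Other targets, the detoxifying enzymes and exporters, were spread widest, with 4 of 14 tested genes up and 5 down, or 6 and 7 of 18 with marked spots kept. Aldh3a1, an aldehyde dehydrogenase, fell by 3.44 (adjusted p of 5.7e-06), a 10.9-fold change from a range of 11.26 to 11.32 down to one of 7.73 to 8.01. Abcc1, which exports glutathione conjugates, rose by 3.03 (adjusted p of 0.000935), or 8.18-fold. Both passed with near-identical arrays counted once, each at an adjusted p of 0.0347. With marked spots kept Gsta2, a glutathione transferase chosen after its values were seen, rose by 3.51 (adjusted p of 2.64e-06, and 0.0283 counted once).

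**Figure D3:**
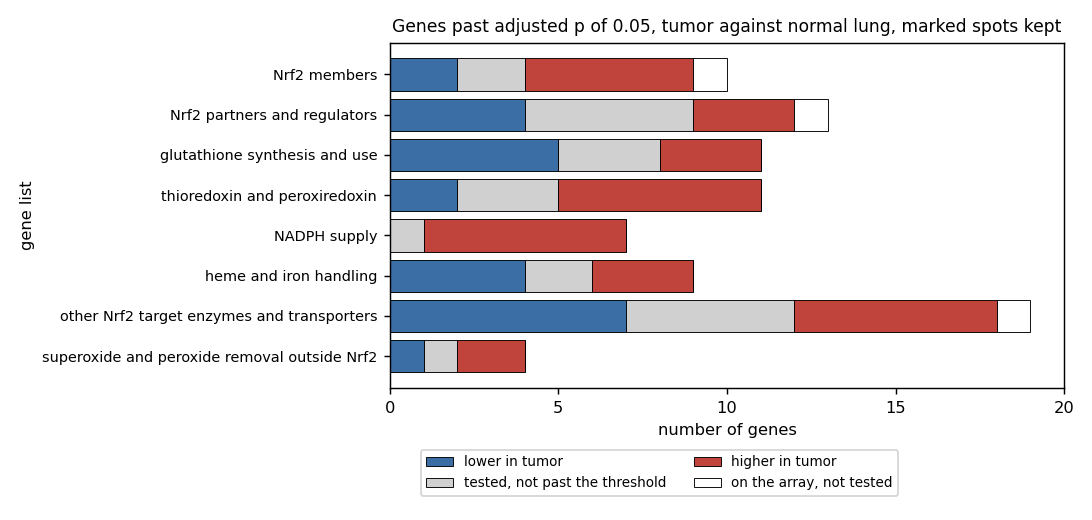
Number of genes (horizontal axis) in the 10 described here and in the 7 pathway lists that were lower in tumor, not past the threshold, higher in tumor or not tested, at an adjusted p of 0.05 with marked spots kept. In the NADPH list 6 of 7 genes were higher and none lower, while each of the other lists holds both directions.

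The tissue of these arrays changed in its makeup of markers as well. All 7 type 2 alveolar markers on the array were above background on every lung array, and 5 rose and 2 fell in tumor with marked spots kept. Type 1 alveolar markers fell from a summed signal of 934919 to 959086 in normal lung to one of 180968 to 190999 in tumor, with 5 of 6 lower, and endothelial markers from 173014 to 183456 down to 24738 to 25140, with all 4 that were tested lower. Of 11 liver markers on the array 10 were above background on every normal array and 8 on every tumor array, and 9 of the 10 tested were at least 2-fold lower and 1 was higher, with a median difference of -3.85. Of 4 adipocyte markers 3 were tested with marked spots kept. Adipoq, the hormone adiponectin, rose by 5.27 and Cidec by 0.99, Fabp4 did not pass the test (0.45), and Lep was not above background in lung. Beside these lists, 34.5% of all probes rose and 31.6% fell with marked spots kept, and 14.4% fell at least 2-fold. The part of these shifts in the differences of the antioxidant genes was not tested.

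Blood was compared between 1 control and 1 NNK-treated rat, so there is no replicate check and no test, and each interval below covers only the error of the spots. Values were normalized within the pair. Relative to control blood, NNK blood had more Hmox1 and Txnrd1 and less Srxn1 and Gsr, each by at least 2-fold, and the other 5 genes compared changed by less. Changes of this size were common, as 23.2% of the 14680 probes compared with marked spots kept were higher by 2-fold or more and 18.9% were lower. Keap1 was not above background on either array.

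Hmox1 had a log2 signal of 7.81 in control and 9.49 in NNK blood, 3.21-fold higher, with a difference of 1.68 and an interval from 1.28 to 2.08. Txnrd1 was at 8.99 and 10.31, a difference of 1.32 (0.92 to 1.72) or 2.50-fold, and was 0.90, under 2-fold, with a 75th percentile shift. Nfe2l2 was at 7.35 and 8.16, a difference of 0.81 (0.40 to 1.21). These 3 were also higher in tumor than in normal lung, Txnrd1 only narrowly. Gsr went opposite ways, higher in tumor and lower in NNK blood.

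Srxn1 was at 8.18 in control and 7.07 in NNK blood, a difference of -1.11 (-1.52 to -0.70) or 2.16-fold lower, and -0.88 with the normexp correction. Gsr was above background in control blood and not in NNK blood, where its signal was 2.77. Against the dimmest detectable signal of the NNK array, control blood was 2.24-fold higher. With the normexp correction the difference was -0.68, under 2-fold. The remaining 4 genes were within 2-fold, Nqo1 at 13.36 and 13.48 with marked spots on both arrays, Gclc at 10.95 and 10.75, Gclm at 14.26 and 13.95 and Slc7a11 at 9.43 and 9.76, and the spot-error interval of each of these differences included 0. The scale between these arrays was uncertain, since a 75th percentile shift moved the median of all probes from -0.11 to -0.26 and took Gclm to -1.34 and Nqo1 to -0.86.

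Over the 7 pathway lists, 6 of the 69 genes compared in blood were higher in NNK blood by 2-fold or more and 16 were lower by as much, beside 23.2% and 18.9% of all probes. The following were chosen after their values were seen, from the genes above background on both arrays. Txnip was at 11.68 in control and 14.23 in NNK blood, a difference of 2.55, against its fall in tumor. Tkt, the transketolase of the pentose phosphate pathway, was at 11.30 and 14.07, a difference of 2.77. Lower were Ephx1, an epoxide hydrolase that detoxifies reactive epoxides, at 11.13 and 8.54, a difference of -2.60, and Slc40a1, the iron exporter, at 12.70 and 10.94, a difference of -1.76.

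The blood samples also differed in cell markers. The summed signal of 5 neutrophil markers was 58550 in control and 150586 in NNK blood, that of 5 platelet markers 223743 and 157655, and that of 5 red blood cell markers 1197550 and 1178930. Of these last, Hbb was at 19.33 on both arrays and Alas2 was 0.13 higher in NNK blood. Slc4a1, Ahsp and Epb42 were lower there, by 0.82, 0.84 and 0.43. Macrophage markers summed to 23184 and 38184, with 3 of 6 above background on each array. The part of these cells in the differences between the samples was not tested, and with 1 array each, animal, treatment and blood composition cannot be told apart.

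**Figure D4:**
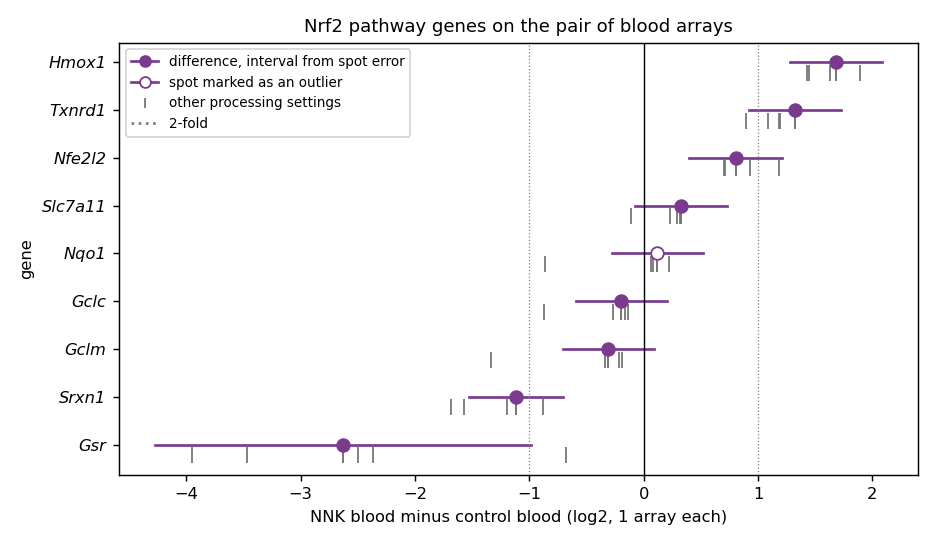
NNK minus control blood difference (horizontal axis, log2, 1 array each) of the 9 genes compared, with bars for the 95% interval from spot error alone and vertical ticks for the values under other processing settings. The open circle is a gene with marked spots and dotted lines mark 2-fold. Hmox1 stays above 1 in every setting, between 1.43 and 1.89, while the ticks of Gclm and Gsr spread widely.

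To set lung beside blood, all 8 arrays were normalized together and the genes were ordered by group, as a description with no test, since the tissues differ in their signal distributions. Of the 9 genes without Keap1, 3 were higher on every lung array than on both blood arrays and 4 were lower, where 46.2% and 33.3% of 18319 probes were. For Nfe2l2, Hmox1 and Txnrd1 the order from high to low was lung tumor, normal lung, NNK blood, control blood. Hmox1 ran from 15.43 to 15.60 in tumor and from 14.07 to 14.12 in normal lung, and was at 12.49 in NNK blood and 10.60 in control blood. Nfe2l2 ran from 13.70 to 14.54 and from 12.90 to 13.09, and was at 11.06 and 9.88. Txnrd1 ran from 14.31 to 14.38 and from 14.13 to 14.22, and was at 13.18 and 12.00. Normal lung overlapped neither tumor nor NNK blood in these orders, while control and NNK blood, without replicates, could not overlap. The share of all probes with the same order was not counted, so the order is not set against a background. Normalized within lung and with marked spots kept, 38.3% of all probes had every tumor array above every normal array.

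Gclm, Nqo1, Gclc and Slc7a11 were higher in blood. Gclm was at 15.87 in control and 15.65 in NNK blood and between 11.45 and 11.59 on the 6 lung arrays, where normal and tumor overlapped. Nqo1 was at 15.26 and 15.33 in blood, from 13.01 to 13.42 in tumor and from 12.35 to 12.45 in normal lung. Slc7a11 was at 12.44 and 12.73 in blood and between 7.92 and 8.57 in lung, and Gclc at 13.66 and 13.52 and between 11.64 and 12.15. Srxn1 and Gsr overlapped between the tissues, with control blood highest in both, at 11.09 and 6.42. Without normalization between arrays, Gclm was the only gene of these lower in lung, and Gclc and Srxn1 were higher there, whereas Nfe2l2, Hmox1 and Txnrd1 were higher and Gclm lower in lung under each of the 4 scalings run. The other named genes most like Nqo1 over the 8 arrays, among 10430 candidates, were F2rl1 (Pearson r 0.998), Jakmip1 (0.997) and Rnaseh2a (0.997), a likeness that rests largely on the gap between the tissues.

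**Figure D5:**
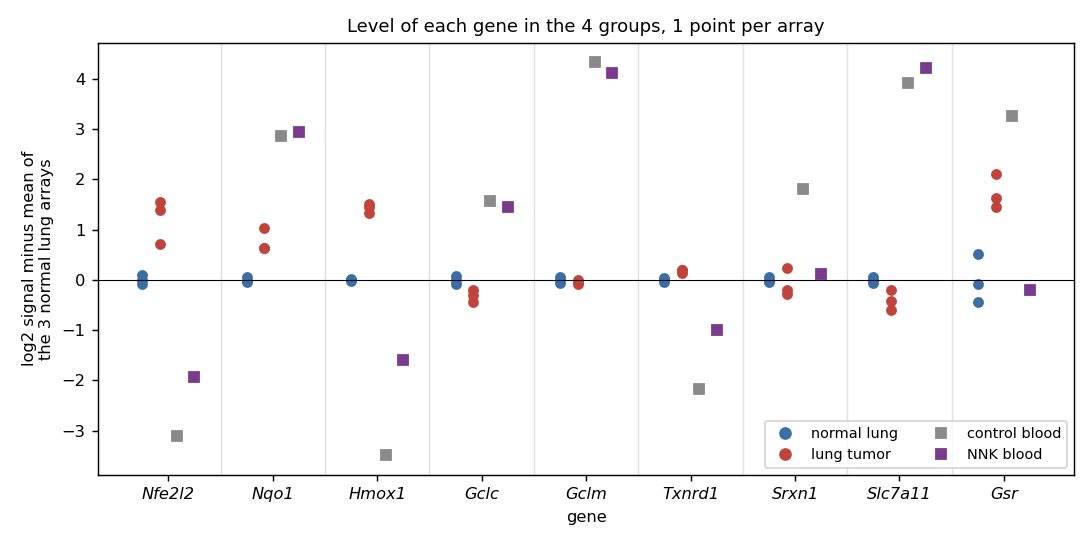
Log2 signal of 9 genes normalized over all 8 arrays, minus that gene's mean in normal lung (vertical axis), with 1 point per array and groups in the order of the legend. Nfe2l2, Hmox1 and Txnrd1 fall from lung to blood, Nqo1, Gclc, Gclm and Slc7a11 rise, and Gsr was not above background in normal lung or in NNK blood.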

How the data were processed

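Arrays were grouped by their labels into 3 normal lung, 3 lung tumor, 1 control blood and 1 NNK blood sample. For each array the authors deposited spot intensities from Agilent Feature Extraction 10.5.1.1, 1 colour, already background-subtracted and with the flags of that software as other columns. A table of log2 values from GeneSpring, quantile-normalized by the authors over all 8 arrays, was deposited too and served as an alternative. Array design names were matched to RefSeq genes of GRCr8, in which 14274 mRNA probes (93.2%) found a gene. The members and gene lists were chosen with earlier results of these data known.

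In R 4.3.3, the log2 signals of the 6 lung arrays were brought to 1 distribution (quantile normalization), and those of the 2 blood arrays likewise. Spots marked as outliers were left out and repeat spots averaged. The lung filter asked for signal well above background, in over 50% of a probe's spots, on at least 3 arrays and for a value on at least 2 arrays of each group. Tumor and normal lung were fitted with lmFit and eBayes of limma 3.58.1, with Benjamini-Hochberg adjustment over all 12471 probes (15803 with marked spots kept) and a threshold of 0.05. Blood and levels over 8 arrays were compared without a test, and the number of arrays limits the precision. For a probe dark on all arrays of a group, the mean of the other group was set against the lowest signal well above background. The steps were tested on simulated data.

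The named genes were the members, the 2 called genes of each pathway list with the largest difference and the 3 genes most like Nqo1, and others are marked as chosen afterwards. A gene that this rule names is not reported here. The labels call tumors and normal tissues matched and give both the numbers 1 to 3. Deviations from the group means of same-numbered arrays correlated at 0.14, -0.04 and 0.16 over 11359 probes, and since the labels match them, the replicate block is given where it ends the call of a gene named. Alternatives were quantile normalization over all 8 arrays, a shift to the 75th percentile, normexp with an offset of 50, a floor of 5, other filters, the authors' values, the methods' t-tests, replicate and scan as blocks, arrays left out and near-identical arrays counted once. Values with marked spots kept, within 1 scan or without normalization were added after seeing the data.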

Additional observations from a re-analysis of the deposited data

How the results depend on the processing

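The count of genes that rose and fell in lung, 3 and 1 with marked spots left out, was 5 and 2 with marked spots kept and with the authors' normalized values, and 0 and 0 with near-identical arrays counted once. The count that fell was 0 with the methods' paired t-test, with the 2-fold, unadjusted p rule, and with the replicate block. Leaving out 1 array at a time gave 1 to 2 genes that rose, the 1 being without tumor array 2 or 3, and 0 to 2 that fell. Without any 1 tumor array Gsr could not be tested, as it then passed background on fewer than 3 arrays. Under the replicate block for the pairing, 2 of 6 genes rose and 0 fell, and with marked spots kept 4 of 9 rose and 0 fell, the calls lost being Txnrd1, Slc7a11 and Gclc. Of all probes tested, 4205 rose and 3918 fell with marked spots left out, and 3719 and 3644 with the replicate block and marked spots left out. For the block with marked spots kept no count over all probes is given. The counts were 2375 and 2429 with the paired t-test, 1725 and 1972 with the 2-fold, unadjusted p rule, and 777 and 974 with near-identical arrays counted once. The paired t-test also ended the calls of Nfe2l2 and Nqo1, at adjusted p of 0.0788 and 0.0668. Hmox1 ran from 1.07 to 1.45 and Nfe2l2 from 0.64 to 1.30 over their alternatives, without a change of direction. Gclm turned to 0.0877 with normexp, and Srxn1 to 0.264 with the scan as a block, to 0.264 within scan 1 and ran from -0.273 to 0.0169 as 1 array was left out, the extremes being without tumor array 1 and 2.

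In blood, where 2 genes were at least 2-fold higher and 2 lower, the 75th percentile shift left 1 higher, normexp 0 lower and the filter on both arrays 1 lower. Of all probes 3339 were higher and 2757 lower, against 1490 and 841 with normexp and 2097 and 1733 with signal on both arrays. Without normalization 5 genes were above and 1 below both blood arrays in lung, against 3 and 4. The cause of these changes was not tested. Keap1 and Gsr were limited by signal over background.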
